A study of Rattus norvegicus with 8 samples.

Results

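Collagens VI, VII, VIII, IX and XII are the beaded, anchoring, short-chain and fibril-associated members of the collagen family. They were chosen by gene symbol in the deposited table of all genes, and all 8 symbols (Col6a1, Col6a2, Col6a3, Col7a1, Col8a1, Col8a2, Col9a2 and Col12a1) were found among its 13536 rows. The libraries were made from primary nucleus pulposus cells, the cells of the core of the intervertebral disc, grown out of tissue explants from Wistar rats. In 4 libraries the cells carried a lentiviral short hairpin RNA directed against HuR (ShHuR), and in 4 a lentiviral non-target hairpin in PLKO.1 (ShCTR). HuR is the RNA-binding protein encoded by Elavl1. All 8 cultures spent their last 24 h at 1% oxygen, so there was no comparison with normal oxygen. The labels used here state neither the age of the rats nor whether replicates stand for different animals or dishes. P-values therefore measure only the spread between these samples, which may be technical. Gene reads recovered from the deposited values summed to 6797360 to 8038192 in the ShHuR libraries and 9096738 to 12179515 in the ShCTR libraries. Each ShHuR library thus had fewer of them than each ShCTR library. The number of reads sequenced is not known here.

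These collagens do not build the thick fibrils themselves. Collagen VI is assembled from 3 different chains, of which Col6a1, Col6a2 and Col6a3 encode the common set, and forms beaded microfilaments in the matrix close around the cell, a zone well developed in disc and cartilage. Collagen XII and collagen IX belong to the fibril-associated collagens and sit on the surface of fibrils of collagens I and II. Collagen VIII is a network-forming short-chain collagen, best known from blood vessel walls and the membrane under the corneal endothelium. Collagen VII forms the anchoring fibrils that hold skin epithelium to the dermis.

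HuR depletion came with lower transcript levels of the 3 collagen VI chains, of Col8a2 and of Col12a1. Their fitted levels in ShHuR were 0.40 to 0.46 times those in ShCTR. In limma with replicate number as a block, 5 of the 8 collagens fell and 0 rose, while 3 (Col7a1, Col8a1 and Col9a2) did not pass at an adjusted p of 0.05. Blocked limma without a variance trend ended all 5 calls (adjusted p = 0.0503 to 0.0784) and called Col9a2 as lower (adjusted p = 0.04996). Over all genes tested 8.05% were called lower and 7.16% higher in the blocked fit with the trend. Libraries with the same replicate number deviated together from their group means, which is why the blocked values are given. Without the block 0 of the 8 were called, against 0% of all genes. At an unadjusted p under 0.05 limma had 978 genes. Col12a1 (adjusted p = 0.521) was the only one of the 8 among them, beside other collagens such as Col1a1 and Col3a1. EdgeR without the block called 0 genes, with 1010 under that unadjusted level, and DESeq2 called 248 genes and 0 of the 8 collagens. Log2 fold changes of the 5 were nearer 0 in these count fits without the block, at −1.06 to −0.77 in edgeR and −1.04 to −0.75 in DESeq2, against −1.31 to −1.13 in limma. The count also depended on which pairs entered: blocked limma called 6 when pair 1 was left out, none (0) when pair 2 was, 1 when pair 3 was and none when pair 4 was. Over all 11847 genes the same fits called 2831, 62, 523 and 0, so the calls of nearly all genes were lost without pair 2 or pair 4. Without pair 1 the collagen added was Col7a1, as higher, and without pair 3 the remaining one was Col12a1. Since fewer cells of a type and less RNA per cell cannot be told apart in bulk samples, a lower level here is a lower level in the library.

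Levels are normalized counts, that is, the authors' gene counts scaled with a single factor in each library. Log2 fold changes are ShHuR over ShCTR on the log2(value + 1) scale. Standard errors and adjusted p-values come from limma with the block (blocked limma) unless another fit is named. All 8 collagens passed the filter on low values (at least 10 normalized counts in at least 4 of the 8 libraries), Col9a2 with exactly 4 libraries. The median log2 fold change of the 8 was −1.18, beside 0.01 for all 11847 genes tested. It was −0.38, −1.17, −1.74 and −1.34 in pairs 1 to 4, so pair 1 differed least between its libraries. Elavl1 itself stood at 11.5%, 0.867%, 1.43% and 7.7% of the ShCTR level in pairs 1 to 4, all ShHuR values lying below all ShCTR values.

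**Figure D1:**
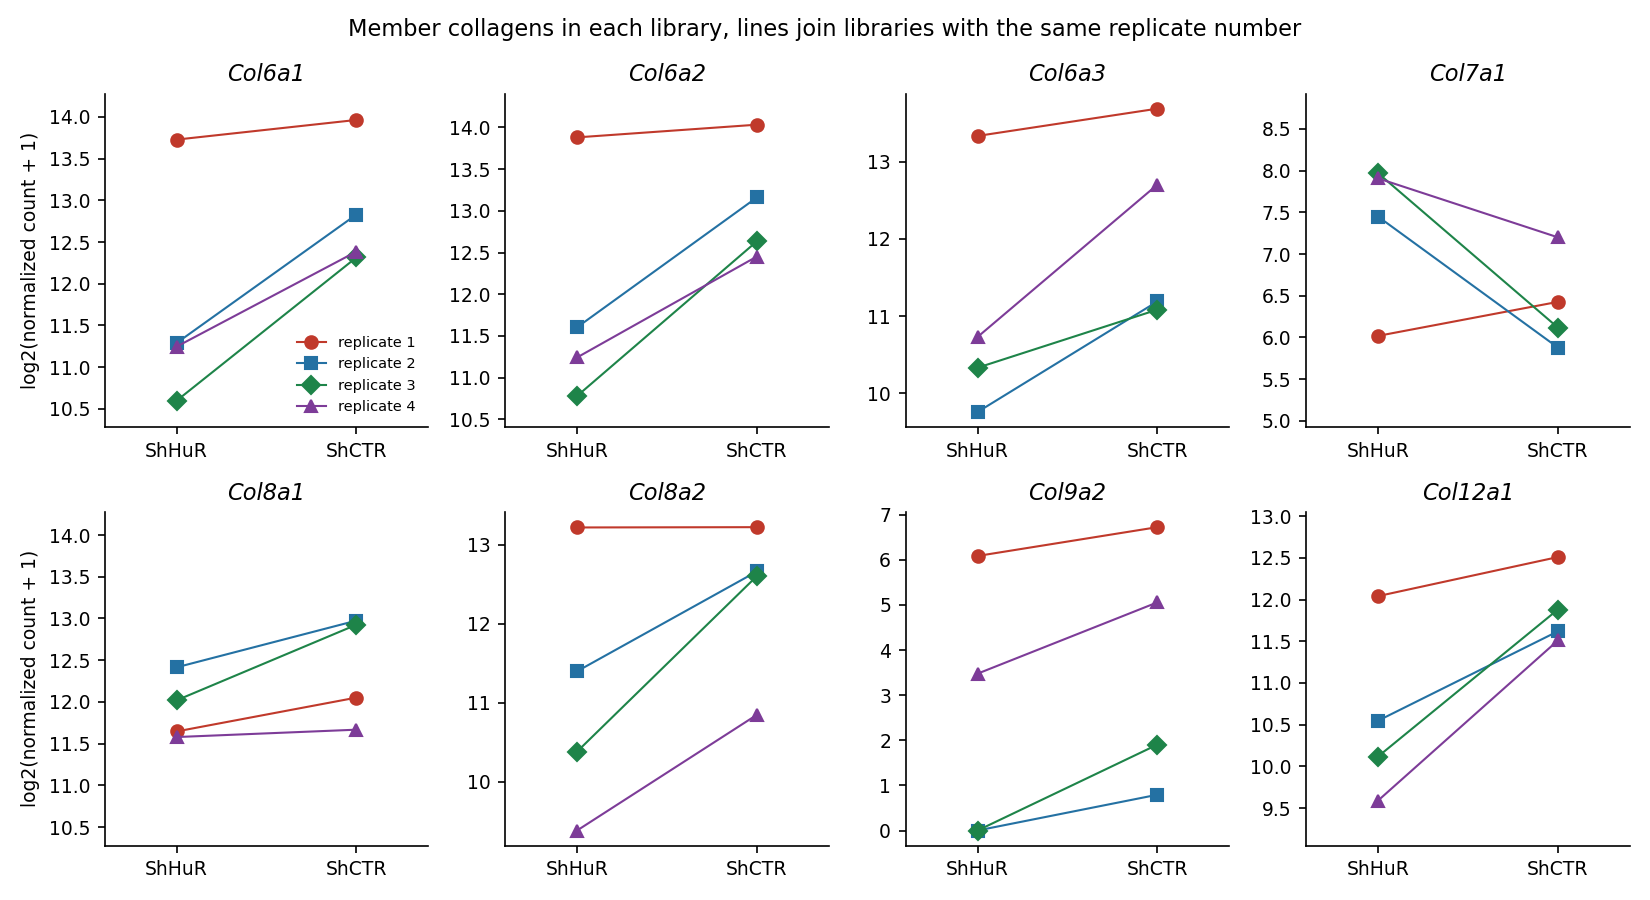
Log2(normalized count + 1) of the 8 collagens in each ShHuR library (left of each panel) and each ShCTR library (right), with a line joining libraries of the same replicate number. The vertical axis of each panel has its own range, and replicate 1 (red) is highest in both groups for the collagen VI chains, Col8a2, Col9a2 and Col12a1.

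The 2 collagen VI genes Col6a1 and Col6a2 both lie on rat chromosome 20 in the RefSeq annotation. Between them are 2 annotated genes, neither of them protein-coding. Col6a3 lies on another chromosome. RefSeq (GRCr8) promoter windows were found for 6 of the 8 collagens. Those of 4 are shown here as the bases before the annotated gene, at most 250, to set the sequences of collagens that fell together (Col6a1, Col6a3, Col8a2) beside that of Col7a1, the only one with a positive log2 fold change. Capitals mark letters that match a motif searched on both strands: the TATA box TATAAA, the CCAAT box CCAAT, the GC box GGGCGG, the AP-1 site TGANTCA and the hypoxia response core ACGTG. The windows are chr20:11905440-11905689 (plus strand) for Col6a1, chr9:98887061-98887208 (minus strand) for Col6a3, chr5:143870519-143870753 (plus strand) for Col8a2 and chr8:118483114-118483363 (plus strand) for Col7a1.
Col6a1: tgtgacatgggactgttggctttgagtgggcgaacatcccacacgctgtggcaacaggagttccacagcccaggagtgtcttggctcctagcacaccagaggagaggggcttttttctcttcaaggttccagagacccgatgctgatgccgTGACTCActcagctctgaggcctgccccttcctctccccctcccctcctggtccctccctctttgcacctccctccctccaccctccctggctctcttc
Col6a3: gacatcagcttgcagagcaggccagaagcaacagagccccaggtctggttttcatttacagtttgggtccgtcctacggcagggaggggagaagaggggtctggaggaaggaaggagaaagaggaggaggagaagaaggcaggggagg
Col8a2: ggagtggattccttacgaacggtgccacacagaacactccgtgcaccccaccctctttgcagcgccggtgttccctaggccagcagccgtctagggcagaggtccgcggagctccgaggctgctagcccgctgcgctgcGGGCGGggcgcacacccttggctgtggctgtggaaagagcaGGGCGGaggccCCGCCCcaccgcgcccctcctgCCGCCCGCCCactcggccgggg
Col7a1: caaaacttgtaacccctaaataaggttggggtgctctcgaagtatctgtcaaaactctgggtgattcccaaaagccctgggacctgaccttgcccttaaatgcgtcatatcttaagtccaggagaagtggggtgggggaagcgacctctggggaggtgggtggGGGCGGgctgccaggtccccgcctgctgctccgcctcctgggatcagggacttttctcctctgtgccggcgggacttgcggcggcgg

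The Col6a1 window held 1 AP-1 match, a motif found in 6.34% of the 33469 rat promoter windows of 250 bases. The Col6a3 window, 148 bases long, held 0 matches to the 5 motifs. The Col8a2 window held 5 GC box matches, 2 of which overlap, and the Col7a1 window held 1. A GC box was found in 30.5% of all windows, a TATA box in 12.9%, a CCAAT box in 34.02% and the ACGTG core in 16.6%. No TATA box, CCAAT box or ACGTG match was found in the 4 windows shown. The GC content of the full 250 bases was 60% for Col6a1, 58.4% for Col6a3, 73.2% for Col8a2 and 59.6% for Col7a1, beside a median of 51.2% over all windows.

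Col6a1 (ENSRNOG00000001249) encodes the alpha 1 chain of collagen VI. It had 13571, 2503, 1549 and 2429 normalized counts in ShHuR replicates 1 to 4, against 15979, 7279, 5097 and 5349.95 in ShCTR replicates 1 to 4. ShHuR replicate 1 lay among the ShCTR values, and the other 3 ShHuR libraries lay below all of them. The log2 fold change was −1.16 (SE 0.23; adjusted p = 0.0228, blocked limma). Pair by pair, ShHuR stood at 84.9%, 34.4%, 30.4% and 45.4% of ShCTR in pairs 1 to 4.

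Col6a2 (ENSRNOG00000001254), the alpha 2 chain, had 15081, 3112, 1758 and 2421 normalized counts in ShHuR replicates 1 to 4, against 16759, 9154, 6358 and 5603 in ShCTR. Here too ShHuR replicate 1 stood apart, and the other 3 ShHuR values were below every ShCTR value. Its log2 fold change was −1.19 (SE 0.26; adjusted p = 0.0269, blocked limma).

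Col6a3 (ENSRNOG00000019648), the long alpha 3 chain, had 10305, 865.5, 1288 and 1697 normalized counts in ShHuR replicates 1 to 4, against 13162, 2334, 2169 and 6656 in ShCTR. The order of the libraries differed from that of the other chains: after replicate 1, replicate 4 was the next highest in both groups. The log2 fold change was −1.13 (SE 0.25; adjusted p = 0.0271, blocked limma). By pair it was −0.35, −1.43, −0.75 and −1.97, so pair 4 moved most in Col6a3, whereas pair 3 moved most in Col6a1 (−1.72) and Col6a2 (−1.85).

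**Figure D2:**
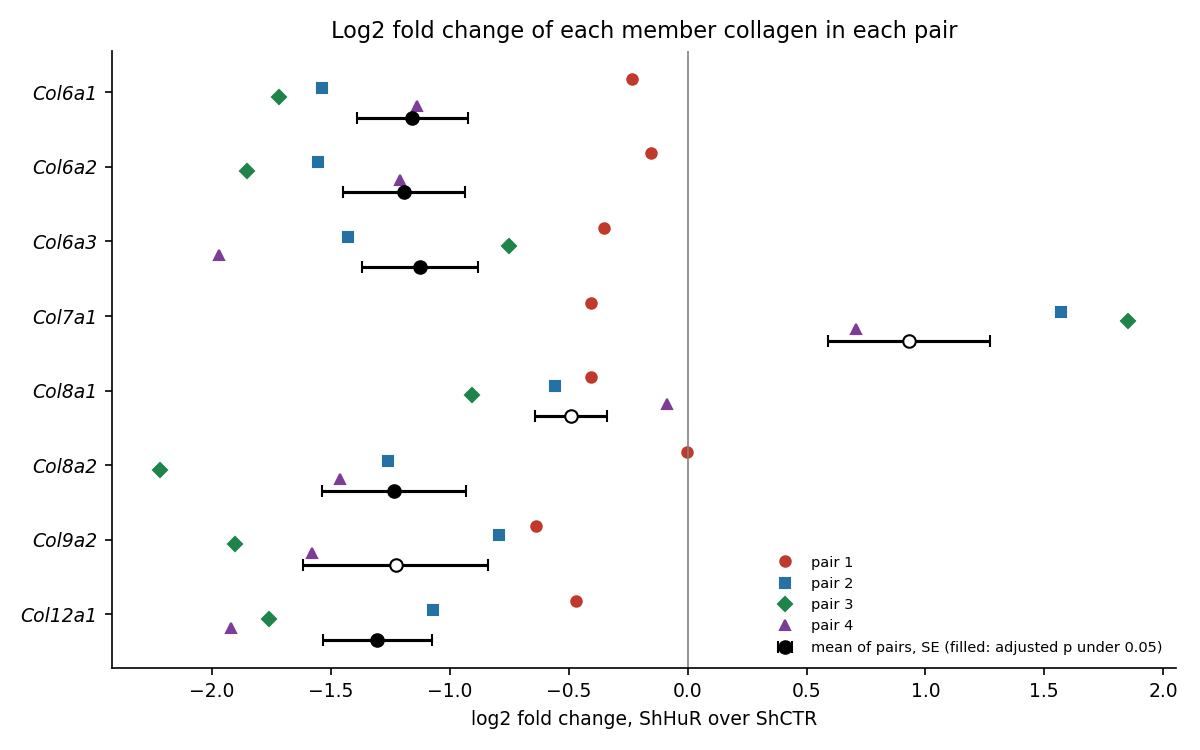
Log2 fold change (ShHuR over ShCTR) of each collagen in pairs 1 to 4 (coloured markers), with the mean over pairs and its SE from limma with the block in black, filled where the adjusted p was under 0.05. Every marker lies below 0 except 3 of Col7a1, and pair 1 is the marker nearest 0 for 7 of the 8 collagens. Col9a2 is counted among the 7, but its markers from pairs at or under 3 reads are set mainly by the 1 added to each value. They stand for no fold.

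Since the 3 chains make up 1 molecule, their ratios within a library were compared. Col6a1 and Col6a2 kept a narrow ratio, with log2 values of −0.15, −0.31, −0.18 and 0.0042 in ShHuR replicates 1 to 4 and −0.07, −0.33, −0.32 and −0.07 in ShCTR. These ratios are of normalized counts, not corrected for transcript length, so their absolute size says nothing about chain proportions. The mean log2 ratio was −0.16 ± 0.13 in ShHuR and −0.20 ± 0.15 in ShCTR (SD, n = 4 each), a difference of 0.04 that ran from −0.08 to 0.14 over the pairs (two-sided exact permutation test, p = 0.743). With 4 against 4 no p can go below 0.0286, and adjusted over the 4 ratios tested every p was 0.943.

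The Col6a3 to Col6a1 ratio varied far more between libraries. Its log2 values were −0.40, −1.53, −0.27 and −0.52 in ShHuR replicates 1 to 4 and −0.28, −1.64, −1.23 and 0.31 in ShCTR. Libraries of replicate 2 had the lowest value in both groups. The mean difference was 0.03 (two-sided exact permutation test, n = 4 each, p = 0.914), with pairs running from −0.83 in pair 4 to 0.97 in pair 3. For Col6a3 over Col6a2 the difference was 0.07 (two-sided exact permutation test, n = 4 each, p = 0.943). With pairs this far apart, no change in chain proportions was detectable.

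**Figure D3:**
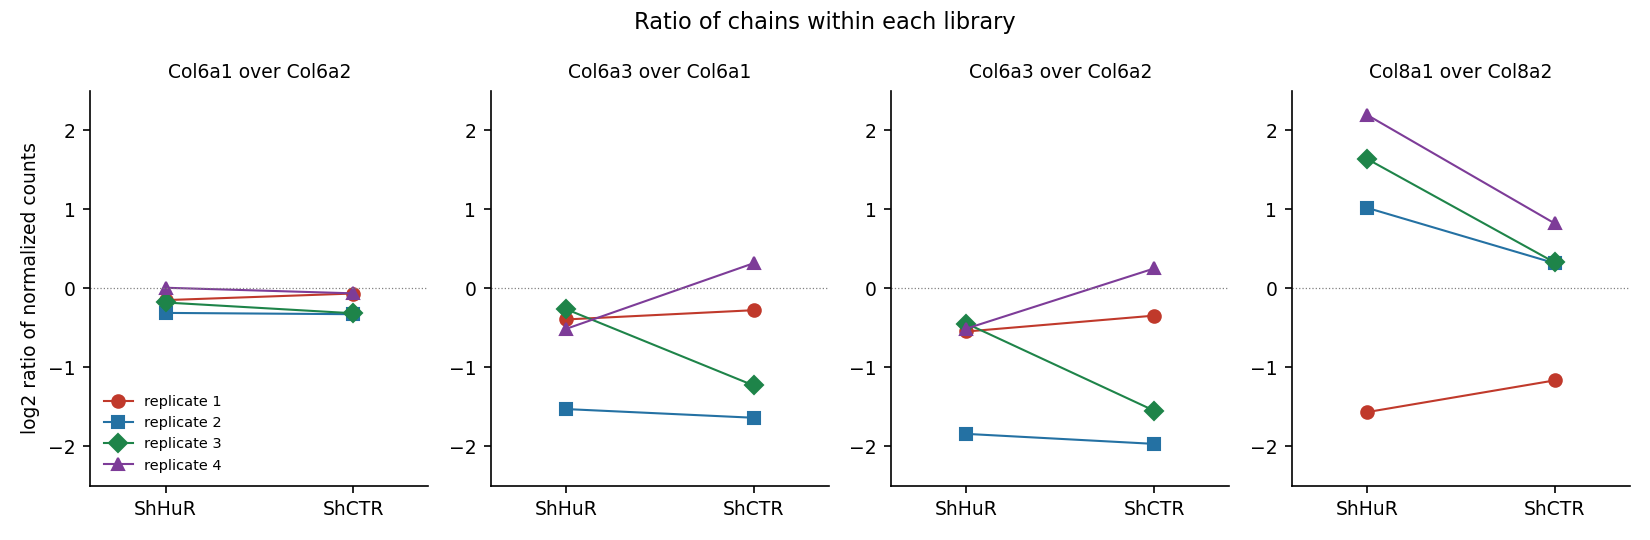
Log2 ratio of normalized counts of a pair of chains in each ShHuR library (left) and ShCTR library (right), lines joining the same replicate number and all panels on 1 scale. Col6a1 over Col6a2 stays between −0.33 and 0.0042, whereas Col8a1 over Col8a2 spans −1.57 to 2.19 with both replicate 1 libraries at the bottom.

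To describe which genes followed the same course, centred log2 profiles over the 8 libraries were compared by their root mean square difference with genes above the median of mean expression. The gene nearest to Col6a1 was Col6a2, and the gene nearest to Col6a2 was Col6a1, at 0.12 log2 units. Of 5882 genes compared, Col6a3 ranked 300 among the neighbours of Col6a1 (0.65) and 579 among those of Col6a2 (0.75). Seen from Col6a3, Col6a1 ranked 36 and Col6a2 ranked 105. After Col6a2, the profiles nearest to Col6a1 were those of Loxl3, a lysyl oxidase-like enzyme of collagen cross-linking (0.19), and Fzd7, a Wnt receptor (0.21). After Col6a1, those nearest to Col6a2 were Ccnd3, cyclin D3 (0.20), and Adamtsl4, an ADAMTS-like matrix protein (0.24). Nearest to Col6a3 were Cdh13, a glycolipid-anchored cadherin (0.29), Gpc1, glypican 1 (0.33), and Fam69b (0.41). The libraries of a group share a hairpin and a range of recovered reads, and those of a number deviate together, so these are descriptions of these 8 libraries.

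Col8a2 (ENSRNOG00000010841), the alpha 2 chain of collagen VIII, had 9511, 2698.5, 1335 and 668.4 normalized counts in ShHuR replicates 1 to 4, against 9535, 6468, 6212 and 1842 in ShCTR. Both groups ran in the same order, replicate 1 highest and replicate 4 lowest, and they overlapped. The log2 fold change was −1.24 (SE 0.30; adjusted p = 0.0359, blocked limma). In pair 1 ShHuR stood at 99.7% of ShCTR, while pairs 2 to 4 gave log2 fold changes of −1.26, −2.22 and −1.46. Its GC-rich promoter window is shown above. Among the profiles nearest to that of Col8a2 were those of Ckb, brain-type creatine kinase (0.30), and Spon2, a spondin of the matrix (0.32).

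Col8a1 (ENSRNOG00000039668), the alpha 1 chain of the same collagen, had 3203, 5458, 4149 and 3057 normalized counts in ShHuR replicates 1 to 4, against 4243, 8046, 7777 and 3250.3 in ShCTR. Its libraries were ordered differently from those of Col8a2: replicates 2 and 3 were highest in both groups. Each ShHuR value was below its ShCTR partner, but the log2 fold change of −0.49 did not pass (SE 0.15; adjusted p = 0.0664, blocked limma). It did pass in DESeq2 on recovered reads with the block (adjusted p = 0.0265). The log2 ratio of Col8a1 over Col8a2 was −1.57, 1.02, 1.64 and 2.19 in ShHuR replicates 1 to 4, against −1.17, 0.31, 0.32 and 0.82 in ShCTR. It was lower in ShHuR in pair 1 and higher in pairs 2 to 4, by 0.70 to 1.37, with a mean difference of 0.75 (two-sided exact permutation test, n = 4 each, p = 0.457). The difference was 1.54 without ShHuR replicate 1 (exact permutation p = 0.0571), 0.47 without ShHuR replicate 3 (p = 0.714), 0.29 without ShHuR replicate 4 (p = 0.743) and 0.33 without ShCTR replicate 1 (p = 0.8286). An unequal change of the chains was not shown by these tests.

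Col12a1 (ENSRNOG00000058470), a large fibril-associated collagen of dense connective tissue, had the lowest adjusted p of the 8. It had 4214, 1496, 1110.3 and 769.7 normalized counts in ShHuR replicates 1 to 4, against 5830.1, 3145, 3768 and 2914 in ShCTR. ShHuR replicate 1 reached into the ShCTR range and the other 3 were below it. The log2 fold change was −1.31 (SE 0.23; adjusted p = 0.0169, blocked limma), with −0.47, −1.07, −1.76 and −1.92 in pairs 1 to 4. Group held 46.4% of the sum of squares of its log2 values and replicate number 44.4%, the largest group share of the 8. The nearest profiles were those of Pfkm, muscle-type phosphofructokinase (0.23), Plpp1, a phospholipid phosphatase (0.27), and Ech1, an enzyme of fatty acid oxidation (0.30).

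Col9a2, a chain of collagen IX, which coats the collagen II fibrils of cartilage and disc, was close to the detection limit. It had 66.9, 0, 0 and 10.1 normalized counts in ShHuR replicates 1 to 4, against 104.6, 0.73, 2.74 and 32.3 in ShCTR. These values stand for 44, 0, 0 and 10 reads in ShHuR and 112, 1, 3 and 36 reads in ShCTR. Replicates 2 and 3 of both groups were thus at or under 3 reads, which allows up to 3.03 and 3.13 normalized counts in those ShHuR libraries, so no fold is given for pairs 2 and 3. In pairs 1 and 4 ShHuR stood at 63.9% and 31.4% of ShCTR. The fitted log2 value of −1.23 (SE 0.39; adjusted p = 0.0702, blocked limma) depends on the pseudocount and is no bound. Without the variance trend it passed (SE 0.24; adjusted p = 0.04996, blocked limma). Of the sum of squares of its log2 values 93.1% went with replicate number and 5.81% with group. Col2a1, its fibril partner, did not pass the filter, with 3.04, 0, 0 and 0 normalized counts in ShHuR replicates 1 to 4 and 0, 0, 21.0 and 1.79 in ShCTR. Col9a1 and Col9a3 are not analysed here.

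Col7a1 (ENSRNOG00000020579) went the other way in 3 of 4 pairs. It had 63.8, 173.7, 249.6 and 239.0 normalized counts in ShHuR replicates 1 to 4, against 85.0, 57.8, 68.5 and 146.1 in ShCTR. The 3 ShHuR libraries of replicates 2 to 4 were above all ShCTR values, and ShHuR replicate 1 was below its partner and above 1 ShCTR library. The log2 fold change was 0.93 and did not pass (SE 0.34; adjusted p = 0.1, blocked limma), with −0.41, 1.57, 1.85 and 0.71 in pairs 1 to 4. Without pair 1 it was 1.38 and passed (SE 0.23; adjusted p = 0.00513, blocked limma), pair 1 being the only one in which ShHuR was lower. It was 0.72, 0.62 and 1.00 without pair 2, 3 or 4 and did not pass (adjusted p = 0.302, 0.287 and 0.216, blocked limma). It also passed with all pairs in DESeq2 with the block (0.97, adjusted p = 0.0401), but not in edgeR with the block (0.98, adjusted p = 0.0794). Of 6 tested genes of the anchoring complex that collagen VII belongs to, 0 passed, with a median log2 fold change of 0.05. Among them the laminin chain genes Lama3 and Lamb3 had log2 values of 0.20 and 1.30 (adjusted p = 0.58 and 0.0851, blocked limma). Of 8 keratinocyte and epithelial markers 3 were in the table (Krt10, Dsp and Dsg3), while the defining Krt5, Krt14, Cdh1 and Epcam are not analysed here. The 3 summed to 19.8 to 235 normalized counts in ShHuR and 11.2 to 70.3 in ShCTR. The desmosomal gene Dsp rose by 1.73 (adjusted p = 0.022, blocked limma). It had 15.2, 29.3, 176.5 and 24.3 normalized counts in ShHuR replicates 1 to 4, against 2.8, 18.3, 29.2 and 7.17 in ShCTR. Its value in ShCTR replicate 1 stands for 3 reads, so the fold of pair 1 rests on a value at the detection limit. Dsg3 did not pass (0.64, adjusted p = 0.407, blocked limma). Krt10 was not tested and averaged 6.77 in ShHuR and 9.55 in ShCTR. The part of these 3 markers in the Col7a1 values was not tested.

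Replicate number held a larger share of the sum of squares than group for each of these collagens except Col12a1. The shares are not divided by degrees of freedom, which are 3 for replicate number and 1 for group. Replicate number would thus take the larger share from noise alone, and the shares do not rank the 2 sources. Within ShHuR, the highest library had 8.76 times the lowest for Col6a1, 11.9 times for Col6a3, 14.2 times for Col8a2 and 1.79 times for Col8a1. Within ShCTR the same ratios were 3.14, 6.07, 5.18 and 2.48. For Col6a1, Col6a2 and Col6a3 the share of replicate number was 67.0%, 63.4% and 77.6%, and that of group 26.5%, 28.3% and 17.2%. Groups overlapped for all 8 collagens, so 0 of the 8 were separated without regard to pairing, where 5.6% of all tested genes were. Within pairs 7 of the 8 were lower in ShHuR each time, beside 19.4% of all tested genes, although Col9a2 counts among these with pairs at the detection limit. Leaving out each pair in turn in blocked limma gave log2 fold changes of −1.47 to −0.97 for Col6a1, −1.54 to −0.97 for Col6a2 and −1.38 to −0.84 for Col6a3. The same range was −1.65 to −0.91 for Col8a2 and −1.58 to −1.10 for Col12a1. Each was farthest from 0 without pair 1. The value nearest 0 came without pair 3 for Col6a1, Col6a2 and Col8a2, and without pair 4 for Col6a3 and Col12a1.

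Together the 8 collagens made up 29.2%, 29.6%, 24.4% and 15.8% of all normalized counts of the 30 collagen genes in ShHuR replicates 1 to 4, against 23.5%, 23.5%, 22.1% and 17.5% in ShCTR. The 30 genes summed to 191936, 55068, 46857 and 71510.5 in ShHuR, against 279299, 155056, 142154 and 147315 in ShCTR. The collagen total was thus lower in ShHuR in each pair, while the share of these collagens was higher in ShHuR in pairs 1 to 3 and lower in pair 4.

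The counts for the other gene lists come from blocked limma. That fit called 8.05% of all tested genes lower and 7.16% higher, the shares to set beside each list count below. Whether any list exceeds these shares was not tested. Without the block limma called 0 genes in any of them. Of 8 tested fibrillar collagens 5 fell and 1 rose, with a median of −1.07. Those with the largest falls were Col1a1, Col3a1 and Col5a2 at −2.35, −2.01 and −1.50, and Col27a1 rose by 0.66. Of 7 basement membrane and multiplexin collagens 2 fell, Col4a3 (−1.51) and Col18a1 (−0.61), and 1 rose, Col4a2 (0.73). None of the other 3 tested beaded or fibril-associated collagens passed: Col14a1, a relative of Col12a1, had −0.61 (adjusted p = 0.1, blocked limma), Col16a1 had 0.28 (adjusted p = 0.107 in the same fit) and Col20a1 had 0.24 (adjusted p = 0.639). The transmembrane Col17a1 had −0.53 (adjusted p = 0.195, blocked limma). Whether the classes differ from each other was not tested.

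**Figure D4:**
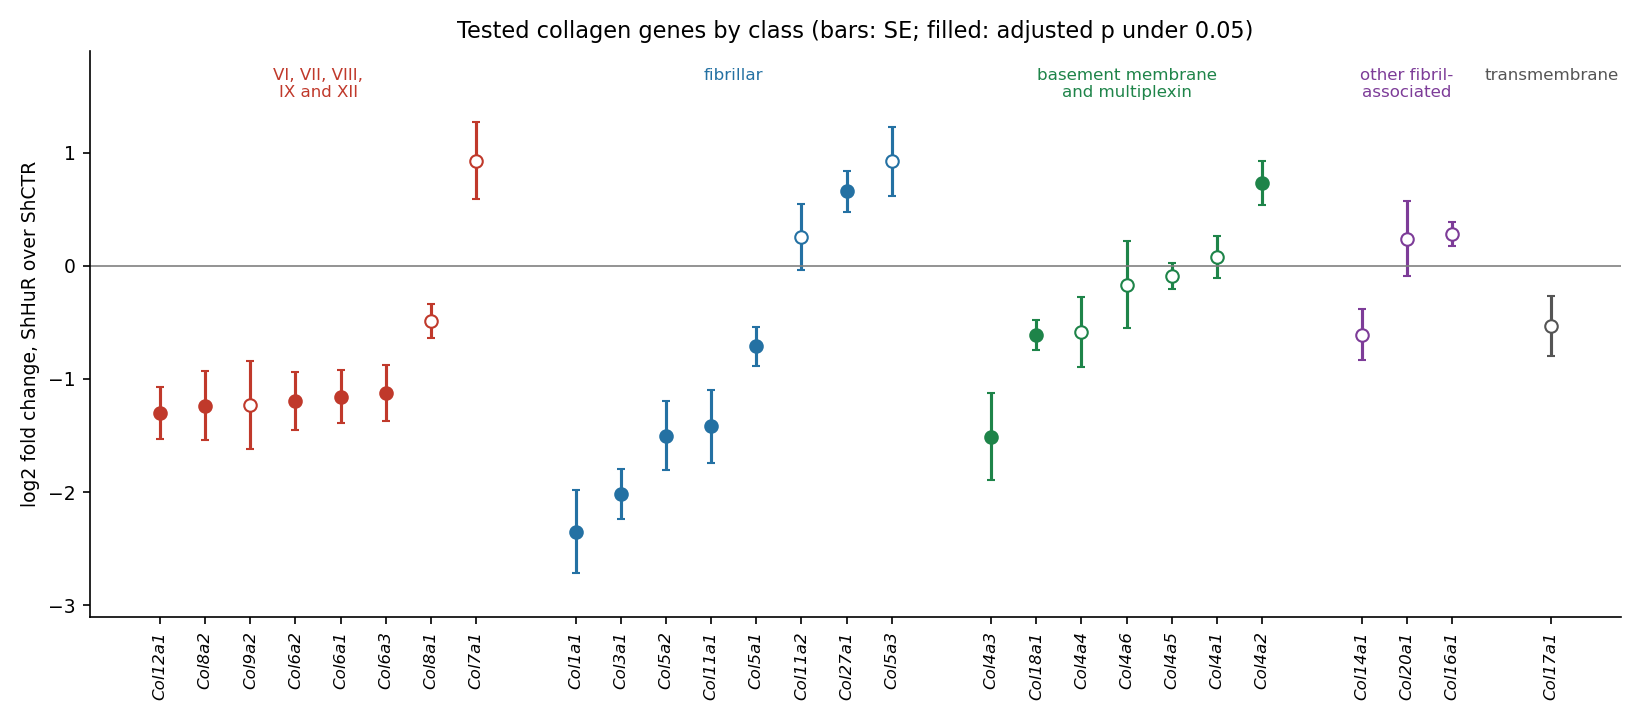
Log2 fold change (ShHuR over ShCTR) with its SE from limma with the block for each tested collagen gene, grouped by class and filled where the adjusted p was under 0.05. Collagens VI, VIII (alpha 2) and XII lie between −1.31 and −1.13, beside −2.35 for Col1a1 and 0.73 for Col4a2.

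Of 36 tested genes that make, cross-link or process collagen, 5 fell and 1 rose, with a median of −0.30. Over all tested genes 8.05% fell and 7.16% rose in the same fit. Crtap, which works in collagen prolyl 3-hydroxylation, fell by 1.45, Loxl2 by 1.44 and Loxl3, the second nearest profile to Col6a1, by 1.25. Bmp1, a procollagen C-proteinase, rose by 1.14. Of 15 pericellular partners, 0 fell and 2 rose: Ptx3, a pentraxin, by 1.70 and Tnxb, tenascin X, by 1.49. Both folds rest partly on low values. In pair 1 Ptx3 had 9.12 normalized counts in ShHuR and 5.6 in ShCTR, and Tnxb had 7.6 and 3.74. Tnxb also had only 5.38 in ShCTR replicate 4. The median of that list was 0.01, and it holds the small proteoglycans and matrilins that bind collagen VI.

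Among 9 tested collagen receptors 3 fell and 1 rose, with a median of −0.26. Itga11, an integrin subunit that binds fibrillar collagen, fell to 842.1 ± 1349 normalized counts in ShHuR, against 2503 ± 1938 in ShCTR (SD, n = 4 each; log2 fold change −2.65, SE 0.39; adjusted p = 0.0115, blocked limma). Cspg4, the proteoglycan NG2, known as a cell surface receptor of collagen VI, fell by 0.79, Itga1 fell by 0.67, while Itga2 rose by 1.77.

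The libraries were checked against cell type markers. Of the nucleus pulposus and notochord markers 15 of 19 were in the table, and Shh and Noto are not analysed here. Acan, which encodes aggrecan, averaged 83.1 ± 87.5 normalized counts in ShHuR and 220.3 ± 164.9 in ShCTR (SD, n = 4 each). Sox9, a cartilage transcription factor, averaged 20.9 ± 12.3 in ShHuR and 26.2 ± 13.2 in ShCTR (SD, n = 4 each). Both were detected in all 8 libraries. Of 15 tested, 3 fell (Acan, Sox6 and Car12) and 0 rose, and their summed level was 12651 to 40624 in ShHuR and 15239 to 40222 in ShCTR. Replicate 1 had the highest sum in both groups, where the glucose transporter gene Slc2a1 made up 30665 of 40624 normalized counts in ShHuR and 30410.3 of 40222 in ShCTR. Other markers went the other way: Cdh2, N-cadherin, was lowest in replicate 1 of both groups, with 150.4 normalized counts in ShHuR and 119.6 in ShCTR. Of the annulus and fibroblast markers 11 of 13 were in the table, and 4 of them fell (Thy1, Mkx, Pdgfrb and Prrx1) and 1 rose (Twist2). Their summed level was 10882 to 18275 in ShHuR and 19921 to 24992 in ShCTR, so that the sums did not overlap. Of all single genes tested, 5.6% did not overlap either. The sum came mostly from S100a4, Pdgfrb, Thy1 and Pdgfra, and the groups overlapped for each of these genes.

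Few endothelial, leukocyte, muscle and neural markers were in the table. Of 8 endothelial markers 3 were in the table, with sums of 427 to 1425 in ShHuR and 247.5 to 557.9 in ShCTR, nearly all from Flt1, which rose by 1.16. Of 8 leukocyte markers 2 were in the table, with sums of 22.2 to 664 in ShHuR and 24.2 to 573.5 in ShCTR, replicate 1 being highest in both. Of 7 muscle markers 4 were in the table (516.5 to 1720 in ShHuR, 600.4 to 1429 in ShCTR) and 0 of 3 tested passed. Of 7 Schwann and neural markers 3 were in the table (101.3 to 823.1 in ShHuR, 224.9 to 2094 in ShCTR), and S100b, also a cartilage gene, fell by 2.00. The part of these markers in the collagen values was not tested.

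The authors' deposited table calls 6 of the 8 collagens lower and 1 higher, where 8.13% of its 13007 genes with an adjusted p are lower and 8.13% higher. Besides the 5 called by limma, the authors' deposited table calls Col8a1 (log2 fold change −0.47, adjusted p = 0.027) and Col7a1 (0.78, adjusted p = 0.0478). Col9a2 has −0.72 and an adjusted p of 0.155 in the authors' deposited table.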

How the data were processed

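RNA was extracted from 8 cultures, depleted of ribosomal RNA and made into stranded total-RNA libraries, per the labels' protocols. The aligner, counter, build, annotation and use of strand were not given in the sources used here. Per the file headers and the values, the deposited signal is gene counts divided by 1 factor per library. In each of the 8 columns 100% of values were whole multiples of a step (tolerance 0.01), which gave recovered reads for the count tests. The authors also deposited log2 fold changes and adjusted p-values (p-value columns named as DESeq2 writes them, per the file headers). Recovered reads summed to 6797360 to 8038192 in ShHuR and 9096738 to 12179515 in ShCTR, which need not be all reads sequenced. Limits at 3 reads cover counting error only.

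Values were tested as log2(value + 1) in limma 3.58.1 (R 4.3.3) with a mean-variance trend, two-sided, with Benjamini-Hochberg adjustment over 11847 rows, 1689 having been dropped. EdgeR 4.0.16 and DESeq2 1.42.0 on recovered reads were alternatives. The fit designed as the main one had no block. Same-numbered libraries deviated together from their group means (correlations of 0.87, 0.78, 0.63 and 0.77 for numbers 1 to 4, each over the set minimum of 0.1), so the blocked fit is printed beside it. Each library correlated highest with its own number, but numbers 2 and 3 were poorly separated (0.62 for ShHuR 2 with ShCTR 3 and 0.43 for ShHuR 3 with ShCTR 2). What the numbers mark is left unsaid in the labels. Identifiers of the sheet of all genes stand out of register with the symbols, so rows were matched by symbol and identifiers taken from the sheet of called genes. Spreadsheet dates replaced 21 symbols (0.258% of reads), which stayed in the fit unnamed. Named genes are the 8 collagens, Elavl1, up to 3 rises and 3 falls per gene list, and the 3 nearest profiles of each called collagen. Others are named to give a list's members. Some genes that this rule or a list would name are not reported here. The members and lists were chosen with earlier results of these data known.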

Additional observations from a re-analysis of the deposited data

Results flagged for a closer look

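Dixon's criterion takes the gap to the nearest library over the range of the group. By it, within a group of 4 libraries, 5 of 26 sets of values had 1 library far from the others. Genes entered as normalized counts, not on the log2 scale, and chain ratios as log2 values. The sets share libraries and are not independent. So 5 of 26 cannot be set against the rate of about 1 in 20 for independent normal values. In ShHuR, replicate 1 stood above the other 3 libraries for Col6a1 (13570.8 normalized counts, gap over range 0.921), Col6a2 (15081.1, 0.898), Col6a3 (10305.3, 0.912) and Col9a2 (66.9, 0.849). ShCTR replicate 1 was also the highest of its group for these 4 genes without passing the criterion. For the log2 ratio of Col6a3 over Col6a2, ShHuR replicate 2 was low at −1.84 (0.928), and ShCTR replicate 2 was the lowest of its group at −1.97.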

How the results depend on the processing

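Of 222 values of single collagens under the alternatives, 0 changed sign, and 51 passed the threshold, 50 of them with the replicate block. With all 8 libraries the block, the variance trend and the low-value filter leave a limma log2 fold change as it was. Many of the 222 signs were thus fixed beforehand, and their count is no measure of stability. The numbers of genes and of the 8 collagens called in limma were 0 and 0 without the block and 1802 and 5 with the replicate block. With the replicate block they were 1845 and 5 in edgeR, 2053 and 7 in DESeq2 and 573 and 1 in limma without a trend, where the 1 was Col9a2. DESeq2 without the block called 248 genes and 0 of the 8 collagens, Col6a1 having no adjusted p there. Settings combined with the block after seeing the data gave 1787 and 5 (pseudocount 0.5), 1831 and 5 (pseudocount 5), 1770 and 5 (no low-value filter), 1701 and 5 (filter of 50, which removed Col9a2) and 1648 and 5 (quantile normalization). Leaving out 1 library without the block gave 0 to 105 genes and 0 to 1 of the 8 collagens, the highest without ShHuR replicate 1. Leaving out pair 1, 2, 3 or 4 with the block gave 2831, 62, 523 and 0 genes and 6, 0, 1 and 0 of the 8 collagens. The 4 chain ratios passed no test under any alternative run. Paired by replicate number, a sign-flip test of the 4 pairs gave p of 0.25 to 0.875, where the smallest exact value is 0.125. The Col9a2 value with the block was −1.57 at a pseudocount of 0.5 and −0.68 at 5, since 4 of its 8 libraries were under 10 normalized counts.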
